A study of Mus musculus with 3 samples.

Results

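Amino acid transporters carry amino acids across the plasma membrane and the membranes of organelles. The genes described here are those of 7 solute carrier families (Slc1, Slc3, Slc6, Slc7, Slc36, Slc38 and Slc43), chosen by their names in the array files, with control spots left out. They comprise 51 genes with 84 probes, of 29273 gene names and 41174 probes on the array. The Slc6 family also holds carriers of neurotransmitters, taurine and creatine, which the choice by name brought in. The rule itself uses names and no measured values.

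The families differ in how they drive transport. Slc3 heavy chains are glycoproteins that bring Slc7 light chains to the plasma membrane, where the pair exchanges amino acids. Slc1, Slc6 and Slc38 carriers are mostly driven by the sodium gradient, some Slc36 carriers by protons, and Slc43 carriers work by facilitated diffusion. In mammary epithelium such carriers supply amino acids for growth and for the synthesis of milk proteins, and when amino acids run short, the factor ATF4 raises transcription of several of these genes.

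EpH4-PR RNA was hybridised to 3 Agilent whole mouse genome arrays. EpH4-PR is a mouse mammary epithelial line selected after stable transfection of the A isoform of the progesterone receptor, and it was cultured in DMEM with 10% FBS to roughly 75% confluence. EpH4-PR RNA carried Cy5 on each array and a Stratagene mouse standard RNA, whose composition the labels do not give, carried Cy3, with no dye swap. Arrays of the vector control line EpH4-EV were not analysed here, so each ratio is a level in EpH4-PR RNA relative to the reference RNA and not an effect of the receptor. The test against 0 leaves out the spread of the reference itself, and dye and sample cannot be told apart. The labels number the arrays as replicates 1 to 3 without saying whether the cultures were separate, so the p-values may measure technical spread only. In bulk RNA, fewer cells with a transcript and less of it per cell cannot be told apart.

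The median spot intensity was 112, 113 and 93.8 in Cy5 and 142, 140 and 108 in Cy3 on replicates 1, 2 and 3. Across all probes the log2 ratios of any 2 arrays had a Pearson correlation of 0.923 to 0.952, across probes that are not independent replicates. Of 10 epithelial marker genes, all were well above background in EpH4-PR RNA on all 3 arrays and 8 were called higher than the reference. Krt19 was called lower, with a log2 ratio of -2.62. Of 10 fibroblast marker genes 9 were called lower, and of 10 blood marker genes 5. By probe, 9 of 11 epithelial markers were called higher, and 10 of 20 fibroblast and 7 of 16 blood markers lower. Over all probes, 2.26% were called higher and 3.83% lower. Under median centring in place of loess, the median log2 ratio went from 1.40 to 2.88 (epithelial), from -1.02 to -0.58 (fibroblast) and from -0.84 to -0.80 (blood). The 24 probes for 10 neural marker genes had log2 ratios between -0.74 and 0.71. Pgr, the gene for the introduced receptor, had 2 probes, each of which stood well above background in EpH4-PR RNA on 1 array, and the files do not say whether they lie in the transfected sequence.

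Promoter sequences are shown for 3 of the 33 transporter genes that had a promoter to search. These sequences hold TGATGNAA, the core of the site through which ATF4 and C/EBP factors act in the amino acid response, in either orientation. They come from RefSeq (GRCm38.p6) and run from 250 bases before to 50 bases after the transcription start, 5′ to 3′ on the strand of the gene, which is the minus strand for all 3. Capitals mark each match. The Slc7a11 promoter (chr3:50443564-50443863) has matches whose first bases lie 66 and 47 bases upstream of the start. The Slc1a4 promoter (chr11:20332664-20332963) has a match 4 bases upstream. The Slc7a7 promoter (chr14:54417895-54418194) has matches 141 and 1 bases upstream, and a further annotated Slc7a7 promoter overlaps it and holds the nearer match again.
Slc7a11: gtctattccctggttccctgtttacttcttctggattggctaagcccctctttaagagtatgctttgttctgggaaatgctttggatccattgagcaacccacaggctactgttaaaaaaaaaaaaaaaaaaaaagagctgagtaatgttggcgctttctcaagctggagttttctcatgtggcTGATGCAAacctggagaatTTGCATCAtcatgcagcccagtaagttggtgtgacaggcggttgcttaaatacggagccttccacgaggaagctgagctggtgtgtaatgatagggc
Slc1a4: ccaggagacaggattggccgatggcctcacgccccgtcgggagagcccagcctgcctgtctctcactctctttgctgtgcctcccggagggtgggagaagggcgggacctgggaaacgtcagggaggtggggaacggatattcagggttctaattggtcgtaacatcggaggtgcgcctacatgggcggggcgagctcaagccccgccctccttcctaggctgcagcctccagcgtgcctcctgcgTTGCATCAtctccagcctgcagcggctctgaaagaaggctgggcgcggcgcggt
Slc7a7: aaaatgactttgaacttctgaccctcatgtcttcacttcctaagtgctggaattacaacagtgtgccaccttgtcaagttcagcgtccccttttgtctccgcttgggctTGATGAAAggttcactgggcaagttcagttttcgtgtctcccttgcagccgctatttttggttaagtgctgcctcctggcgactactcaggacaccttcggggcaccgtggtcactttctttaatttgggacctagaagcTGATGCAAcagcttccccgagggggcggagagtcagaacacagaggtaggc

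Of the 51 transporter genes, 33 had a promoter to search, with 53 promoters in all. The called genes Slc6a6, Slc38a1, Slc1a5, Slc6a8 and Slc7a3 had none and were not searched, nor was Slc7a5. TGATGNAA stood in 4 of them (7.55%, 3 genes), against 3.97% of all 32851 promoters of the same length. The antioxidant response element TGACNNNGC, the site of NRF2, stood in 9 (17%, 7 genes) against 12.4% of all promoters. The E-box CACGTG stood in 6 (11.3%, 6 genes) against 7.15%. Both orientations were searched, and promoters of 1 gene can overlap and share a match. A match describes the letters of the promoter and is not a binding site. Of the genes with these TGATGNAA matches, Slc7a7 was called lower than the reference RNA, while no probe of Slc1a4 or Slc7a11 was called.

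In EpH4-PR RNA, 53 of the 84 transporter probes (63.1%) were well above background on all 3 arrays, against 68.9% of all probes. These probes covered 36 of the 51 genes. Another 24 probes (28.6%) were well above background on none of the arrays, against 20.9% of all probes. In the reference RNA, 54 probes were well above background on all 3 arrays and 12 on none. No transporter spot was saturated or marked as an outlier.

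A probe was called when its adjusted p was under 0.05 in limma with Benjamini-Hochberg adjustment over all probes and its log2 ratio was at least 1 either way. By this rule 2 transporter probes, both of Slc6a6, were higher in EpH4-PR RNA than in the reference, which is 2.38% of the 84 against 2.26% of all probes. Another 7 probes of 7 genes were lower, which is 8.33% against 3.83%. All 9 were among the 48 transporter probes well above background in both channels on every array. Within those 48, the higher share was 4.17% against 3.47% of all such probes, and the lower share was 14.6% against 5.67%. The lower calls fell in the Slc1, Slc6, Slc7, Slc38 and Slc43 families and, as processed here, in neither Slc3 nor Slc36. Under median centring in place of loess the split of 2 higher and 7 lower became 6 higher and 3 lower, and that of all probes went from 932 higher and 1578 lower to 7031 higher and 708 lower.

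Most transporter ratios were small. The median log2 ratio of the 84 probes was -0.05, against -0.01 over all probes, and of the 48 brighter probes 39 lay within 1 log2 unit of 0 and 33 within 0.5. Of the 48, 32 had an adjusted p under 0.05 in limma with Benjamini-Hochberg adjustment, 14 of them higher than the reference (29.2%, against 34.1% of all such probes) and 18 lower (37.5%, against 28.8%). The SD between arrays had a median of 0.08 over the transporter probes and reached 0.41 at most.

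**Figure D1:**
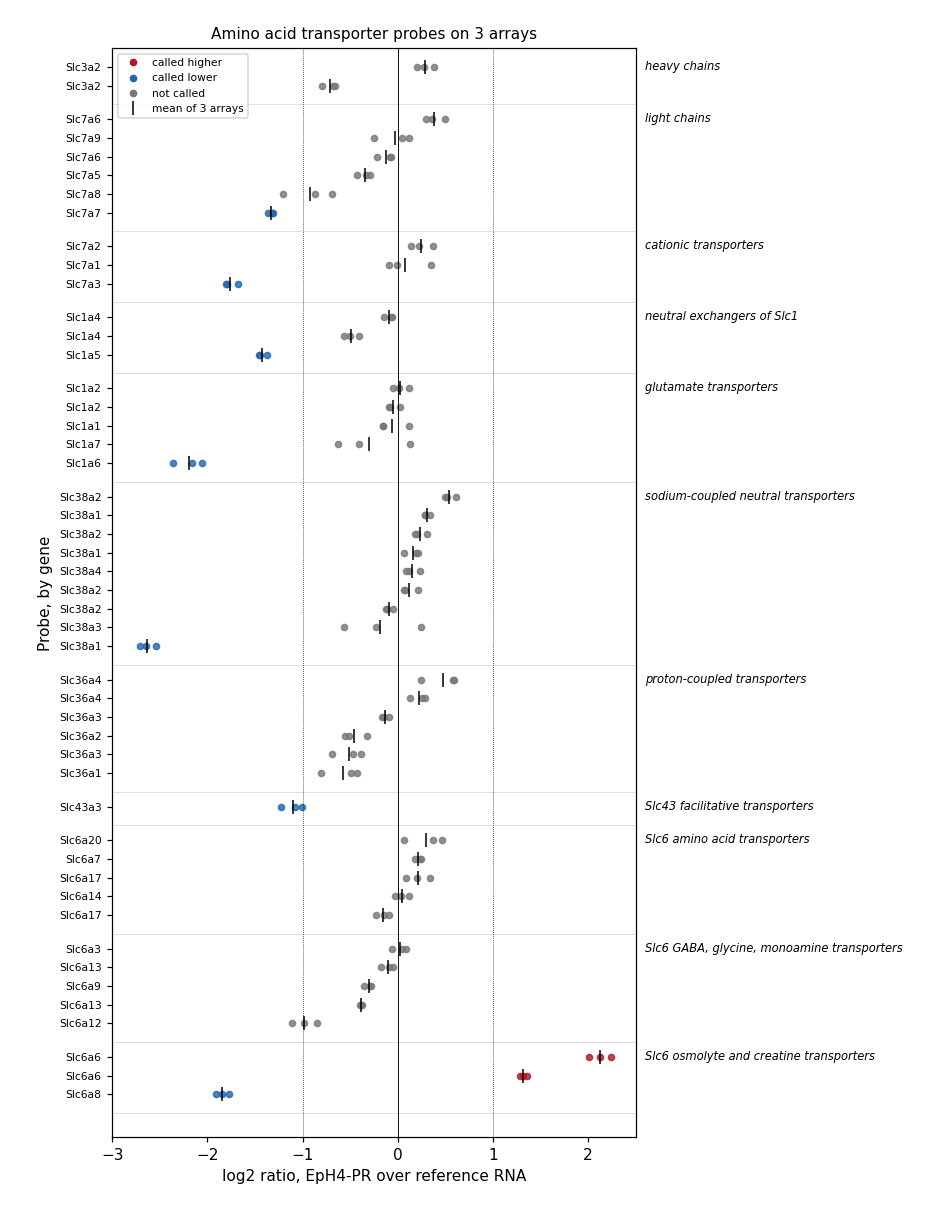
Log2 ratio of EpH4-PR to reference RNA (horizontal axis) for the transporter probes well above background in both channels on every array, by family group; points are the 3 arrays, bars their mean, colours the calls, and dotted lines 1 log2 unit either way. The 2 Slc6a6 probes lie right of 1 on every array, and the 7 probes called lower lie left of -1 on every array.

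Of the heavy chains, Slc3a2 (4F2hc, the partner of most light chains) was bright in the cells and its 2 probes disagreed. The probe A_51_P472901 read 1759, 1785 and 1859 in Cy5 and 1118, 1079 and 1075 in Cy3. Its log2 ratio was -0.80, -0.68 and -0.66, averaging -0.71 ± 0.07 (SD, n = 3; adjusted p = 0.000261, limma with Benjamini-Hochberg adjustment), below 0 on all 3 arrays. This bright probe was stronger in Cy5 than in Cy3, while the median spot of each array was weaker in Cy5. Loess takes out such a trend with intensity, and without it, under median centring, the same probe had a log2 ratio of 0.62. The dimmer probe A_52_P245648 had a ratio of 0.38, 0.27 and 0.20, above 0 throughout. Slc3a1 (rBAT, the partner of Slc7a9 in renal cystine uptake) was well above background in neither channel on any array.

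The light chains that pair with Slc3a2 to carry large neutral amino acids are Slc7a5 (LAT1) and Slc7a8 (LAT2). Slc7a5 read 1967, 1779 and 1987 in Cy5 and 976, 843 and 921 in Cy3. On the 3 arrays its log2 ratio was -0.42, -0.29 and -0.33, averaging -0.35 ± 0.07 (SD, n = 3; adjusted p = 0.00319, limma with Benjamini-Hochberg adjustment), inside the limit of 1 log2 unit, and it became 0.97 under median centring. Slc7a8 read 88.9, 89.1 and 75.0 in Cy5, near the background, against 177, 161 and 157 in Cy3. Its ratio was -0.87, -0.69 and -1.20, with a mean of -0.92 ± 0.26 (SD, n = 3), and replicate 3 lay apart from the others. Slc7a8 was not called, but it passed the limit without replicate 2 (-1.04), with normexp offset 0 (-1.89) and by the log ratio of the scanner software (-2.37). It also passed with the scanner software's background (-1.04).

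Slc7a7 (y+LAT1), which exchanges cationic for neutral amino acids, was the only light chain called by this rule. It read 179, 180 and 174 in Cy5 and 283, 287 and 248 in Cy3. The log2 ratio was -1.31, -1.36 and -1.32, averaging -1.33 ± 0.03 (SD, n = 3; adjusted p = 3.36e-05, limma with Benjamini-Hochberg adjustment), or 2.51-fold lower than the reference. The 3 arrays were alike, but under median centring the ratio was -0.62 and the call was lost. Its relative Slc7a6 (y+LAT2) had a bright probe at 0.38 ± 0.10, another at -0.13 ± 0.08 and a further probe well above background in neither channel. The first of these was called higher only under median centring, at 1.12.

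The remaining light chains were near the limit of the measurement. Slc7a11 (xCT, which imports cystine in exchange for glutamate) had 1 of its 3 probes well above background in EpH4-PR RNA on all arrays, with a Cy5 intensity of 91.7, 86.2 and 76.0, and its ratio of 0.19 ± 0.15 (SD, n = 3; adjusted p = 0.0767, limma with Benjamini-Hochberg adjustment) was not distinguishable from 0. Slc7a9, the cystine and cationic light chain of kidney and intestine, had a ratio of -0.03 ± 0.20, spread on both sides of 0. For Slc7a10 and Slc7a12 the reference was well above background on no array, and EpH4-PR RNA on 1 and 2 arrays. Slc7a10 measured 1.09-fold higher (adjusted p = 0.0853, limma with Benjamini-Hochberg adjustment) and lay at -0.12 under median centring. Slc7a12 measured 1.23-fold higher. It was called higher with normexp offset 0 (1.80) and by the log ratio of the scanner software (2.06). Slc7a13 was well above background in EpH4-PR RNA on no array.

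The cationic amino acid transporters Slc7a1 to Slc7a4 carry arginine and lysine without a heavy chain, although the transport function of Slc7a4 is less clear. Slc7a3 (CAT3) was called lower. It read 107, 108 and 86.7 in Cy5 against 272, 254 and 217 in Cy3. Its log2 ratio was -1.80, -1.67 and -1.80, averaging -1.76 ± 0.07 (SD, n = 3; adjusted p = 2.61e-05, limma with Benjamini-Hochberg adjustment), or 3.38-fold lower. It was -1.33 under median centring, -2.78 with normexp offset 0 and -3.01 by the log ratio of the scanner software. Slc7a1 (CAT1), the widely expressed member, had ratios of 0.35, -0.09 and -0.01, and replicate 1 alone lay clearly above 0. Slc7a2 had a ratio of 0.25 ± 0.12 (SD, n = 3). Slc7a4, well above background in EpH4-PR RNA on no array, measured 1.2-fold lower. The log ratio of the scanner software called Slc7a4 lower (-1.02).

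In the Slc1 family, the neutral exchangers Slc1a4 (ASCT1) and Slc1a5 (ASCT2, a main route of glutamine uptake) were both measured. Slc1a5 was called lower, with 466, 449 and 447 in Cy5 and 574, 531 and 529 in Cy3. On the 3 arrays its log2 ratio was -1.45, -1.37 and -1.45, averaging -1.42 ± 0.05 (SD, n = 3; adjusted p = 3.22e-05, limma with Benjamini-Hochberg adjustment), or 2.68-fold lower. All 3 arrays were alike, but median centring gave -0.33 and lost the call. The 2 probes of Slc1a4 lay at -0.49 ± 0.08 and -0.09 ± 0.05 (SD, n = 3 for each), and both lay above 0 under median centring.

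The glutamate transporters of the family take up glutamate and aspartate, most of them at synapses and in glia. Slc1a6 (EAAT4), best known from cerebellar Purkinje cells, was called lower, with 157, 168 and 130 in Cy5 against 398, 387 and 362 in Cy3. Its ratio was -2.16, -2.06 and -2.36, averaging -2.19 ± 0.15 (SD, n = 3; adjusted p = 3.34e-05, limma with Benjamini-Hochberg adjustment), or 4.57-fold lower. All 3 arrays lay far below 0, and the ratio was -1.41 under median centring. Slc1a1, Slc1a2 and Slc1a7 were not called. Slc1a7 had ratios of -0.41, -0.63 and 0.13, which fell on both sides of 0. Of the 2 dim Slc1a3 probes, 1 measured 1.08-fold lower in EpH4-PR RNA and the other 1.1-fold higher, so its direction is not settled.

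Slc38a1 (SNAT1), a sodium-coupled carrier of glutamine and other neutral amino acids, had the lowest ratio of the 84 probes as processed here and also the widest disagreement between probes. The probe A_51_P507053 read 294, 292 and 278 in Cy5 against 802, 749 and 777 in Cy3. The log2 ratio was -2.64, -2.54 and -2.71, averaging -2.63 ± 0.09 (SD, n = 3; adjusted p = 1.68e-05, limma with Benjamini-Hochberg adjustment), or 6.19-fold lower, and it was -1.55 under median centring. The other 2 probes lay slightly above 0, at 0.30 ± 0.03 for A_52_P190992 and 0.16 ± 0.08 for A_52_P232648 (SD, n = 3 for each). Their Cy5 intensities were 83.5 to 105, near the background, while the called probe was far brighter in both channels. Which transcripts the probes match was not tested.

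Slc38a2 (SNAT2), which is induced when amino acids are scarce, was among the bright transporters in EpH4-PR RNA. Its probe A_51_P458384 read 4264, 3804 and 4028 in Cy5 and had a ratio of 0.23 ± 0.07, and A_52_P676686 read 1504, 1478 and 1401 with a ratio of 0.54 ± 0.06 (SD, n = 3 for each). Its other 2 probes lay at 0.12 ± 0.08 and -0.09 ± 0.04. No Slc38a2 probe was called, although median centring gave 1.62 and 1.76 for the 2 brightest and called both higher. Slc38a3 scattered from -0.57 to 0.24 between arrays. A probe of Slc38a4 was well above background in the reference on all 3 arrays and in EpH4-PR RNA on none. It measured 1.57-fold lower and was called lower with normexp offset 0 (-2.13) and by the log ratio of the scanner software (-2.83). The other Slc38a4 probe lay at 0.14 ± 0.07. Slc38a5, well above background in EpH4-PR RNA on no array, had ratios of -0.24, -0.18 and 0.07, on both sides of 0.

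The Slc36 family had no called probe as processed here. Its proton-coupled members move small neutral amino acids such as proline and glycine, and the family includes lysosomal members. Slc36a4 was called higher at A_51_P416910 with normexp offset 0 (1.26) and by the log ratio of the scanner software (1.13). Its other probe was not called in either (0.71 and 0.41). The log ratio of the scanner software also called Slc36a2 lower at A_51_P366672 (-1.03). Slc36a1 had ratios of -0.43, -0.49 and -0.81 at A_51_P338563, below 0 on every array. Its other probe, well above background in EpH4-PR RNA on 2 arrays and in the reference on 1, read -0.05, -0.01 and 0.17, on both sides of 0. Slc36a2 lay at -0.46 ± 0.12, with a dim probe at -0.01 ± 0.05, and Slc36a4 at 0.47 ± 0.20 and 0.22 ± 0.08 (SD, n = 3 for each). The 3 Slc36a3 probes lay at -0.52, -0.13 and 0.27.

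In the Slc43 family, Slc43a1 and Slc43a2 carry large neutral amino acids, while Slc43a3 is known as a carrier of purine nucleobases. Slc43a3 was called lower and lay close to the limit, with ratios of -1.002, -1.08 and -1.22 and on average -1.10 ± 0.11 (SD, n = 3; adjusted p = 0.00012, limma with Benjamini-Hochberg adjustment). It read 129, 126 and 104 in Cy5 against 214, 212 and 181 in Cy3, and median centring gave -0.70 and lost the call, while normexp offset 0 gave -1.76. The 2 probes of Slc43a2 lay at 0.09 and 0.20, and Slc43a1 was well above background in EpH4-PR RNA on no array.

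The Slc6 family held the transporter calls in both directions. Slc6a6 (TauT), the sodium- and chloride-dependent carrier of taurine and β-alanine, was the only transporter gene called higher, and both of its probes were. The probe A_52_P339996 read 6668, 6555 and 6602 in Cy5 against 567, 535 and 590 in Cy3. Its log2 ratio was 2.12, 2.24 and 2.01, averaging 2.12 ± 0.11 (SD, n = 3; adjusted p = 2.59e-05, limma with Benjamini-Hochberg adjustment), or 4.36-fold higher than the reference. Of all probes well above background in both channels, 0.241% had a higher ratio. The probe A_52_P178151 read 560, 559 and 570 in Cy5, with ratios of 1.31, 1.36 and 1.29 and a mean of 1.32 ± 0.04 (n = 3 arrays, SD), or 2.49-fold higher. The 2 probes thus gave the same direction on every array and differed in size by 0.80 log2 units. Under median centring they were 3.50 and 2.16.

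Slc6a8, the creatine transporter, went the other way. It read 298, 295 and 283 in Cy5 against 515, 489 and 488 in Cy3. On the 3 arrays its log2 ratio was -1.84, -1.77 and -1.91, averaging -1.84 ± 0.07 (SD, n = 3; adjusted p = 2.4e-05, limma with Benjamini-Hochberg adjustment), or 3.59-fold lower than the reference. Median centring gave -0.85, which lost the call. Slc6a12 (BGT1), a carrier of betaine and GABA, fell just short of the limit at -0.99, -1.11 and -0.85, and it passed without replicate 3 (-1.05), with normexp offset 0 (-1.61) and by the log ratio of the scanner software (-1.65). Slc6a9 (GlyT1, a glycine carrier) was bright in EpH4-PR RNA, at 1918, 1772 and 2017 in Cy5, with a ratio of -0.31 ± 0.04 (SD, n = 3) that became 1.01 under median centring.

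The Slc6 carriers of other neurotransmitters were mostly dim. Slc6a4 and Slc6a5, the serotonin and a glycine carrier, had no probe well above background in EpH4-PR RNA on any array. Slc6a3 lay at 0.02 ± 0.08 (SD, n = 3). Slc6a2 was well above background in EpH4-PR RNA on 2 arrays, and the log ratio of the scanner software called it lower (-1.02). Slc6a13 lay at -0.38 and -0.10. Among the Slc6 amino acid carriers, Slc6a15, Slc6a18 and Slc6a19 were well above background in EpH4-PR RNA on no array. Slc6a15 was called lower at A_52_P220440 by the log ratio of the scanner software (-1.11) and at A_52_P177635 with normexp offset 0 (-1.01). Slc6a14, Slc6a17, Slc6a7 and the probe named Slc6a20 in the files, which its accession assigns to Slc6a20b, lay within 0.5 log2 units of 0 where they were well above background in both channels.

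In total 10 genes had no probe well above background in EpH4-PR RNA on any array: Slc3a1, Slc7a4, Slc7a13, Slc38a5, Slc43a1, Slc6a4, Slc6a5, Slc6a15, Slc6a18 and Slc6a19. Their 14 probes read 69.4 to 85.7 in Cy5 on replicate 1, 68.4 to 86.8 on replicate 2 and 56.1 to 68.1 on replicate 3, near the background levels of 69.6, 71.4 and 55.5 that the scanner software used. For a probe well above background on no array in 1 channel only, a bound was sought. Its dimmer channel was raised to the lowest signal among probes well above background wherever it lay below that. Among the transporters this changed only the Slc7a12 bound, so the other bounds equal the measured ratio and are no minimum. Probes well above background in neither channel had no bound. In EpH4-PR RNA 12 dim probes of 11 genes measured 1.01- to 1.57-fold lower, and another 3 gave no fold above 1. Apart from the Slc38a4 probe, these values were 1.2-fold or less, which is close to no difference.

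**Figure D2:**
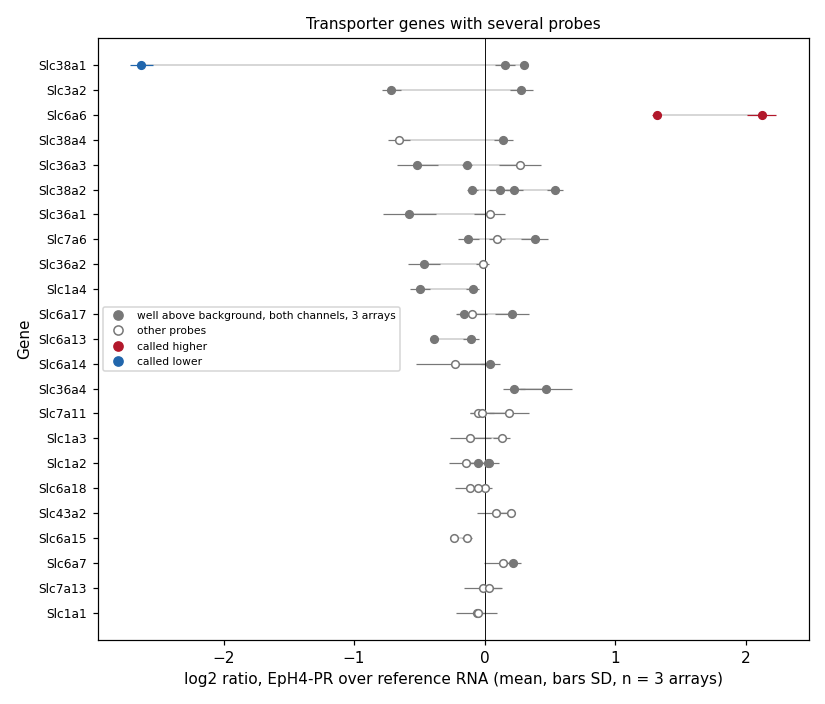
Mean log2 ratio of EpH4-PR to reference RNA with SD (n = 3 arrays) for each probe of the transporter genes with several probes; filled points were well above background in both channels on every array and colours mark calls. Slc38a1 spans 2.93 log2 units between its probes and Slc3a2 1.00, while both Slc6a6 probes lie above 1.

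Probes of a gene could be compared with each other in 11 genes with 2 or more probes well above background in both channels. In 6 of them the probes lay on opposite sides of 0, and the median difference between the highest and lowest probe was 0.40 log2 units. The call for Slc38a1 rests on 1 of its 3 probes and that for Slc6a6 on both of its probes. The genes Slc1a5, Slc1a6, Slc6a8, Slc7a3, Slc7a7 and Slc43a3 had 1 probe each, so their calls have no check from another probe.

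**Figure D3:**
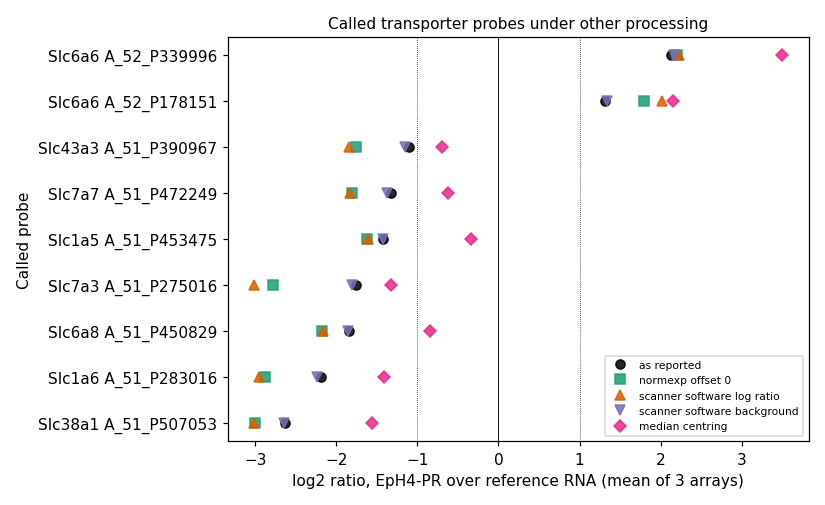
Mean log2 ratio of EpH4-PR to reference RNA (3 arrays) of the 9 called transporter probes as reported and under 4 other ways of processing, with dotted lines 1 log2 unit either way. Slc6a6, Slc38a1, Slc1a6 and Slc7a3 stay beyond 1 in each, while Slc1a5, Slc6a8, Slc7a7 and Slc43a3 fall within it under median centring.

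With each array left out in turn the 9 called probes kept their calls. The calls of both Slc6a6 probes, Slc38a1, Slc1a6 and Slc7a3 held under all alternatives that were run, and those of Slc1a5, Slc6a8, Slc7a7 and Slc43a3 were lost under median centring and held under the others.

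Other genes of amino acid handling were taken from lists and are given for comparison with the transporters. The amino acid response list had 24 genes with 33 probes, all well above background in EpH4-PR RNA on every array. In it 9 probes of 7 genes were called lower (27.3%), against 3.83% of all probes and 5.67% of those well above background in both channels. The highest ratio was 0.98. The median was -0.41, and it became 0.42 under median centring, where 15 of the 33 probes changed sign. The transcription factors Atf5 (-3.02 ± 0.06) and Ddit3 (-1.59 ± 0.07) and the pseudokinase Trib3 (-1.502 ± 0.06 at 1 probe, -0.28 ± 0.12 at the other) were among those called lower. So were the lipoprotein receptor Vldlr (-3.87 and -1.67), the mTORC1 inhibitor Ddit4 (-1.26), Atf3 (-1.07) and the serine synthesis enzyme Psph (-1.04 and -1.02), of which Ddit4 and Psph lay above 0 under median centring. Median centring also took Ddit3 (-0.83), Atf3 (-0.51) and Trib3 (-0.32) inside the limit, while Atf5 (-1.61) and Vldlr (-3.04 and -1.37) stayed past it. Atf4 itself, at -0.26 ± 0.01, and Asns, the asparagine synthetase, at -0.43 ± 0.03 (SD, n = 3 for each), were not called, and under median centring they lay at 0.98 and 1.03, where Asns was called higher.

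Of the cytosolic tRNA synthetases, which charge tRNAs with amino acids, 19 of 20 listed genes had a probe. All 34 probes were well above background in EpH4-PR RNA on every array. Among them 3 were called higher (8.82%), against 2.26% of all probes and 3.47% of those well above background in both channels. These were both probes of Vars (1.33 and 1.49) and 1 of Lars (1.12), whose other probe lay at -0.61. The median of the synthetase probes was 0.21 and became 1.26 under median centring, with 32 of the 34 probes above 0 there against 22 before. Among genes through which mTORC1 senses amino acids, 22 of 25 had a probe. Of their 34 probes 1 was called higher and 1 lower (2.94% each), against 2.26% and 3.83% of all probes. The GTPase Rraga was called higher (2.11 ± 0.07) and the sestrin Sesn3 lower at 1 of its 3 probes (-1.37 ± 0.04), while its others lay at -0.05 and 0.17. The Sesn3 call was lost under median centring (-0.42). Of 21 further amino acid transporter genes outside the 7 families, the mitochondrial aspartate-glutamate carriers Slc25a13 (1.06 ± 0.15) and Slc25a12 (-1.12 ± 0.06) were called, in opposite directions (SD, n = 3 for each), and Slc25a12 lay at 0.06 under median centring. Each call was 3.57% of the 28 probes of that list, against 2.26% of all probes called higher and 3.83% lower.

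**Figure D4:**
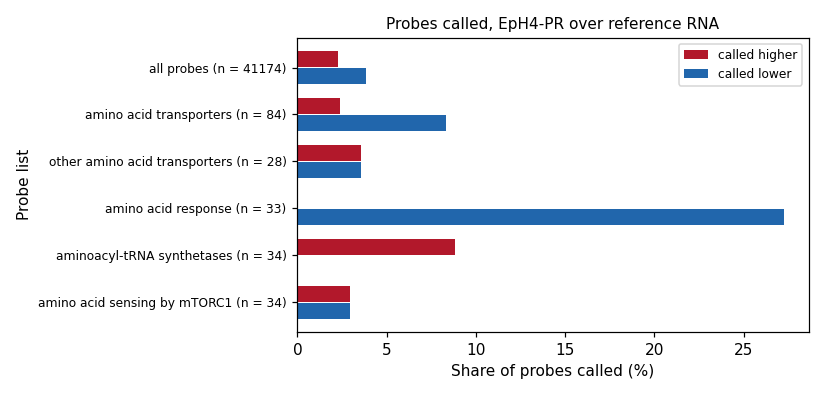
Share of probes (percent) called higher or lower in EpH4-PR RNA than in the reference RNA, by gene list. The transporters had 2.38% higher and 8.33% lower, against 2.26% and 3.83% of all probes, and the amino acid response list had 27.3% lower. All 33 probes of the latter list were well above background in EpH4-PR RNA on every array. Of all probes well above background in both channels, 5.67% were called lower.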

How the data were processed

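The authors deposited the scanner software output of each array (Agilent Feature Extraction 8.1.1.1, per the file headers), with spot and background intensities in both channels and the log10 ratio of red over green. A further deposited table of log ratios, fold changes and p-values between 2 unnamed sides was not used.

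Mean spot intensity was corrected for the median local background with normexp (offset 50) and normalized within arrays by loess in limma 3.58.1 (R 4.3.3). Control and outlier spots (150, 18 and 3 on replicates 1, 2 and 3, of 43790) were left out and spots of a probe averaged. The log2 ratios were tested with lmFit and eBayes against 0. Well above background is the flag of the scanner software. Bounds were computed per channel after loess and Aquantile, without a dye swap, and so are open to dye bias. Probes of a gene were kept apart. Scripts were tested on simulated data. Figures and promoter counts used Python 3.11.15.

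RefSeq accessions (GRCm38.p6) matched 67 of the 84 probes; others kept the file's name. Both heavy chains, each light chain, each gene with a called probe, each with probes in disagreement, and each with only a bound are named; of other lists, genes with a called probe, and Atf4 and Asns were named after their values were seen, as was Pgr. Members and lists were chosen with earlier results of these data known. Alternatives covered background correction, the scanner software's log ratio, median centring, scaling between arrays, dim probes, outlier spots, median spot intensity, the methods' t-test, an intensity trend and each array left out. Precision is limited by the number of arrays. Values of 1 gene are not reported here.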

Additional observations from a re-analysis of the deposited data

How the results depend on the processing

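The counts of all probes called higher and lower (932 and 1578) changed under median centring to 7031 and 708, with a normexp offset of 0 to 3125 and 3905, and with the log ratio of the scanner software to 3616 and 3887. Those of the transporters (2 and 7) became 6 and 3, 4 and 11, and 4 and 14 in the same order. The transporter median of -0.05 moved to -0.18, -0.13 and 0.00131 in that order, to -0.0181 with the scanner software's background, and to -0.0927 and -0.0928 over probes well above background in at least 1 channel and in both. The scanner software's background was chosen after seeing the data. Median centring reversed Slc1a4 (0.42 and 0.24), Slc38a2 A_52_P459046 (0.90), Slc3a2 (0.62), Slc6a3 (-0.17), Slc6a9 (1.01), Slc7a11 (-0.0322), Slc7a5 (0.97), Slc7a6 A_52_P462071 (0.46) and Slc7a9 (0.0192). The median spot intensity reversed Slc38a3 (0.0338), Slc6a14 (-0.0165) and Slc7a9 (0.00752). The scanner software's background reversed Slc1a2 A_52_P178651 (-0.0155), Slc7a1 (-0.0152) and Slc7a9 (0.00412). The scanner software's log ratio reversed Slc1a2 A_52_P311194 (0.0397), Slc1a4 A_51_P371311 (0.0826), Slc7a6 (0.00262) and Slc7a9 (0.20). With each array left out in turn, the ratio ranged from -0.0211 to 0.0643 for Slc1a2 A_52_P178651, from -0.399 to 0.00724 for Slc38a3, from -0.00785 to 0.0660 for Slc6a3, from -0.0536 to 0.166 for Slc7a1 and from -0.103 to 0.0826 for Slc7a9, and the transporter calls were 2 higher and 7 to 8 lower. These alternatives, the intensity trend aside, were compared over 49 probes, those well above background in both channels on every array and Slc7a11 A_51_P129502. Of the values 643 kept their direction and call, 25 reversed, 13 gained a call and 4 lost it. Leaving out dim probes (by 1 channel or both) and the methods' t-test (without or with Benjamini-Hochberg adjustment) reused the reported ratios. No value could reverse or, at these probes, gain a call there. They gave 49, 48, 49 and 49 of the 643, in that order. Beyond the offset, which by construction pulls dim ratios toward 0, the cause was not tested. A slide block could not be fitted, since each slide holds 1 array. No paired analysis was possible because all 3 arrays belong to 1 group. Dim spots limit the ratios of 24 transporter probes not well above background in EpH4-PR RNA on any array.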
